A study of Homo sapiens with 4 samples.

Results

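Epithelial cells and mesenchymal cells are told apart by a small set of identity genes, and 8 of them were examined here for chromatin occupancy by ONECUT2. Peaks were taken where they overlapped the hg19 interval of a gene extended by 50 kb on each side, which gave 7 gene windows, since KRT8 and KRT18 lie side by side in 1 interval. The windows held 12 of the 14431 peaks of ChIP replicate 1, 5 of the 11990 peaks of ChIP replicate 2 and 7 of the 4297 regions of the irreproducible discovery rate (IDR) list. IDR methods keep regions ranked alike between replicates, but the header of this list names an optimal set and no replicate. Its regions were wider, at a median of 1768 bp, against 317 and 294 bp for the peaks of replicates 1 and 2. The windows covered 1.38 Mb in all. The genes were chosen by name, with earlier results of these data known, and windows without a peak count as results.

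The study profiled ONECUT2, a transcription factor with a CUT domain and a homeodomain, by chromatin immunoprecipitation and sequencing in 22Rv1, an established human castration-resistant prostate carcinoma line. There were 4 libraries, 2 made with a rabbit antibody against ONECUT2 and 2 of input DNA from the same line, and no treatment or genetic change is named for any of them. Cells were fixed with formaldehyde and chromatin was sonicated to fragments of 100 to 500 bp. The labels name no separate cultures for the 2 ChIP libraries, so their spread may be purely technical. With 1 ChIP group, the data hold no comparison between conditions and no expression values.

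As background, epithelial cells adhere through E-cadherin, the product of CDH1, and carry the surface adhesion molecule EPCAM. ESRP1 encodes an RNA-binding protein that directs epithelial splicing, and KRT8 and KRT18 encode the paired keratins of simple and luminal epithelia. Mesenchymal cells instead use N-cadherin, encoded by CDH2, and the intermediate filament vimentin, encoded by VIM. ZEB1 encodes a zinc-finger repressor of CDH1 and a driver of the epithelial to mesenchymal transition. In prostate carcinoma, these genes are used to follow shifts of tumour cells away from their luminal epithelial identity.

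The sequences just upstream of 3 mesenchymal genes are shown because a peak or an IDR region lay at or close to the lower or upper interval end where these genes start. They come from the RefSeq promoter table for build GRCh38.p14, 250 bases each. Each is written 5′ to 3′ on the strand of the gene and ends at the base before its outermost listed start. The epithelial gene ESRP1 also had peaks and an IDR region at its start, but the table had no entry for it. For KRT8 and KRT18 the shared interval does not give the starts, and neither is shown. The CDH2 stretch is chr18:28177131-28177380 on the minus strand, the VIM stretch is chr10:17227991-17228240 on the plus strand and the ZEB1 stretch is chr10:31318167-31318416 on the plus strand.
CDH2: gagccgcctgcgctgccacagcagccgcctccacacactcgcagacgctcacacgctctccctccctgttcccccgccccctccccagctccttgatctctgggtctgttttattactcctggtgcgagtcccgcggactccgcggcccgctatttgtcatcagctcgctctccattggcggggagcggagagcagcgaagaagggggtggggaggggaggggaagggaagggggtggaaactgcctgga
VIM: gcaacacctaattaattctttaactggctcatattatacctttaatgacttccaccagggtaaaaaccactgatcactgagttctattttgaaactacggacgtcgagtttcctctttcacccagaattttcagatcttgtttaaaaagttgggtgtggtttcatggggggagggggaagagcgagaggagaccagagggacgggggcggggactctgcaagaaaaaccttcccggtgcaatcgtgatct
ZEB1: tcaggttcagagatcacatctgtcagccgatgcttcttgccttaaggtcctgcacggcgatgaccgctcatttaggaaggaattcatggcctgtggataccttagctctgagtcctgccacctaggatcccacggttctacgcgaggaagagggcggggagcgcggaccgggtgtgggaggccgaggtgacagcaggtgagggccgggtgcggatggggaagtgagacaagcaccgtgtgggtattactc
The letters ATTGAT and ATCGAT, cores known for factors of the ONECUT family, were searched on both strands. Capitals would have marked a match, and none of the 3 stretches holds either. The table had entries for 4 of the 8 genes, CDH2, KRT8, VIM and ZEB1, with 11 starts in all, and 0 of the 11 upstream stretches held either core. Among all 35116 upstream stretches of the table, 5.58% held ATTGAT and 0.655% held ATCGAT. G and C made up 66.0% of the CDH2 stretch, 46.0% of the VIM stretch and 59.2% of the ZEB1 stretch, against a median of 58.0% over the table. The peaks are in hg19, so bases under their summits were not read, and an absent match in these windows says nothing about the factor.

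A peak called in both replicates was present in 5 of the 7 gene windows: those of CDH1, ESRP1, KRT8 and KRT18, VIM, and ZEB1. When the autosomes and X were divided into tiles of 166 kb, the median window length, 24.0% of 17631 tiles held such an overlapping pair. Tiles cut to the length of each window gave 17.2% to 37.9%, which adds up to 1.84 of 7 windows. Replicate 1 had a peak in 5 of 7 windows, against 34.8% of tiles, and replicate 2 in the same 5, against 30.9%. An IDR region was found in 5 of 7, those of CDH1, CDH2, ESRP1, KRT8 and KRT18, and VIM, against 18.1%. The window without an entry in any list was that of EPCAM, and 60.0% of tiles had none. The tiles include long stretches without genes, whereas each window was placed on a gene, and how far gene content raises the count was not tested.

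**Figure D1:**
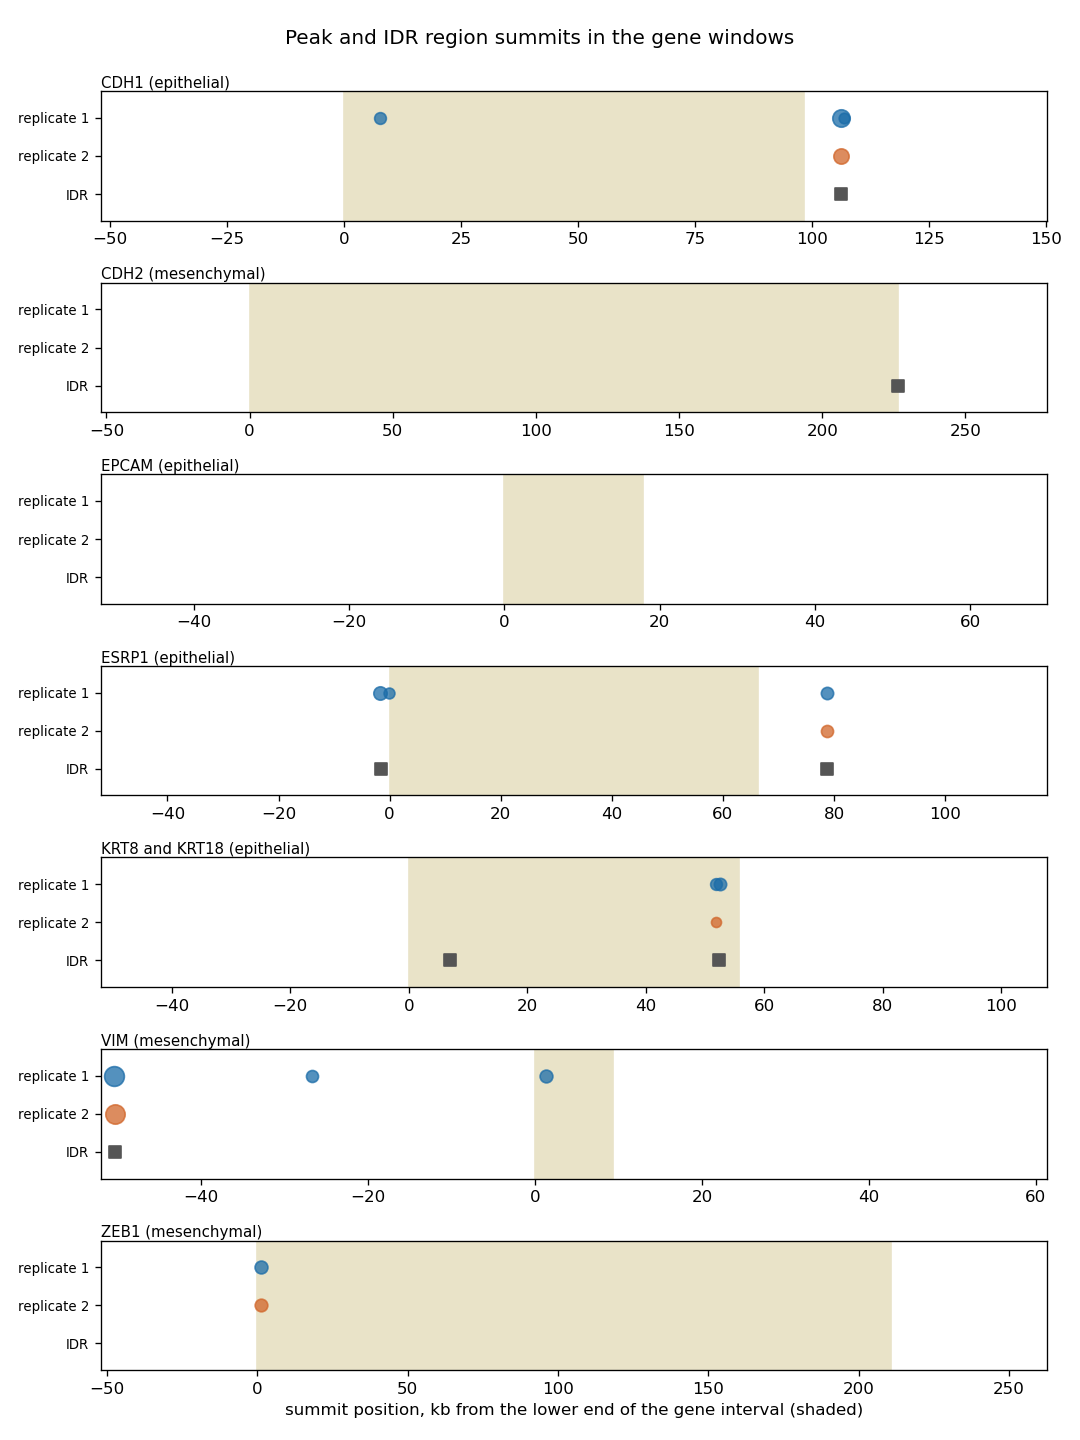
Position of each summit in the 7 gene windows, in kb from the lower end of the gene interval (shaded); circles are replicate peaks, with an area in proportion to fold enrichment, and squares are IDR regions. Only the ZEB1 interval has a replicate pair close to its lower end, while the pairs of CDH1, ESRP1 and VIM lie outside the shaded intervals and EPCAM has no symbol. The shared interval of KRT8 and KRT18 does not show where either gene starts.

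By length, the windows held 8.67 replicate 1 peaks per Mb (exact Poisson 95% interval 4.48 to 15.1), 3.61 replicate 2 peaks per Mb (1.17 to 8.43) and 5.06 IDR regions per Mb (2.03 to 10.4). Mean densities over the autosomes and X were 4.84, 4.02 and 1.46 per Mb, in the same order. The interval of the IDR count lies above its mean density, and those of the replicate lists include theirs. This describes the counts and is no test of enrichment. The genes were chosen with earlier results known, and regions within 1 window need not be independent. The mean densities, like the tiles, include stretches without genes. The 4 epithelial windows held 8 replicate 1 peaks, 3 replicate 2 peaks and 5 IDR regions in 0.638 Mb. The 3 mesenchymal windows held 4, 2 and 2 in 0.746 Mb. The intervals of the epithelial and mesenchymal densities overlapped in every list, at 5.41 to 24.7 and 1.46 to 13.7 per Mb in replicate 1, 0.969 to 13.7 and 0.324 to 9.68 in replicate 2, and 2.54 to 18.3 and 0.324 to 9.68 in the IDR list. These intervals cover counting error only.

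CDH1, the E-cadherin gene, is read upward from the lower end of its interval (chromosome 16, 68771195 to 68869444 in hg19). The tallest peak of its window, and the one with the most ChIP fragments in any window, lay beyond the other end. It ran from 68877182 to 68877864 in replicate 1 and from 68877182 to 68877949 in replicate 2. Its summits were 7948 and 7984 bp past the end of CDH1, and 36 bp apart. Fold enrichment, the ratio of ChIP fragments at the summit to the local background with 1 added to each, was 6.08 in replicate 1 and 4.69 in replicate 2, a mean of 5.38 ± 0.987 (SD, n = 2). In replicate 1 the summit had 101 fragments (exact Poisson 95% interval 82.3 to 123) and its background was 15.8. In replicate 2 it had 86 (68.8 to 106) and a background of 17.6. The 2 fragment intervals overlap, and the difference between the libraries was not tested. By fold this peak ranked 1053 of 14431 and 1677 of 11990. The IDR region over it, from 68877112 to 68878318, had a signal of 379, rank 380 of 4297 and the highest of the 7 regions here.

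In the order of RefSeq genes in GRCh38, the next protein-coding gene past the end of CDH1 is TANGO6, which encodes a protein of the secretory pathway. No hg19 annotation was used, so the peak was assigned to neither gene. A narrow replicate 1 peak from 68877918 to 68878140, with a fold of 2.26 and 25 fragments, shared 32 bp with the right edge of the same replicate 2 peak. Its summit lay 521 bp from the replicate 2 summit, which makes it a flank of the pair rather than a separate shared site by summit position. Within the CDH1 interval itself there was 1 peak, called in replicate 1 only, from 68778786 to 68779021. Its summit was 7754 bp past the start, with a fold of 2.75 from 27 fragments over a background of 9.20. Neither replicate had a peak at the CDH1 start.

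EPCAM, the epithelial adhesion molecule gene on chromosome 2 (47596287 to 47614167), had 0 peaks in replicate 1, 0 in replicate 2 and 0 IDR regions in its window of 118 kb. In tiles of that length, 27.7% held a replicate 1 peak, 24.1% a replicate 2 peak and 13.8% an IDR region. The depth sets what such an absence can mean. Where the background was at its smallest value, 4.37 fragments in replicate 1 and 4.87 in replicate 2, the fewest fragments at a called summit were 14 and 16. A site in this window with fewer fragments than that was not detectable, and the background in the window itself is not known. The nearest peaks lay 192 kb below and 183 kb above the gene in both replicates.

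ESRP1, the epithelial splicing regulator on chromosome 8 (95653364 to 95719694), is also read upward. At its start, replicate 1 had 2 peaks and replicate 2 had none. The first ran from 95651277 to 95651854, with its summit 1805 bp before the start, and had a fold of 3.59 from 50 fragments over a background of 13.2. The second ran from 95653109 to 95653357, with its summit 114 bp before the start, and had a fold of 2.35 from 40 fragments over 16.4. A single IDR region from 95651153 to 95654339 covered both peaks and the start, and at 3187 bp it was the widest of the 7 and the second by signal, at 287 (rank 740). The start of ESRP1 was thus marked in replicate 1 and in the IDR list, but not in replicate 2.

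The peak pair of the ESRP1 window lay past the other end of the gene, with summits 12361 and 12405 bp beyond it. DPY19L4, a gene for a transmembrane protein of the C-mannosyltransferase family, follows ESRP1 in the GRCh38 order. The pair ran from 95731543 to 95732392 in replicate 1 and from 95731974 to 95732155 in replicate 2. Fold was 3.04 and 2.94, a mean of 2.99 ± 0.0703 (SD, n = 2), from 46 fragments over 14.5 and 45 over 14.6. The replicates were nearly equal here, although the called widths were 850 and 182 bp. An IDR region from 95731365 to 95733039 covered the pair, with a signal of 190 (rank 2195).

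KRT8 and KRT18 encode keratins that polymerise with each other, and their shared interval on chromosome 12 runs from 53290971 to 53346685. KRT8 lies at its lower end and KRT18, read upward, at its upper end. The shared interval does not give where either gene starts, so distances to the starts were not measured. The pair of the replicates lay inside the interval near the upper end, from 53342722 to 53343175 in replicate 1 and from 53342751 to 53343053 in replicate 2. The summits were 3806 and 3868 bp below the end of KRT18. Replicate 1 counted 63 fragments there against a background of 22.3, and replicate 2 counted 60 against 29.3. Only the CDH1 pair had more fragments, yet fold was 2.74 and 2.01, a mean of 2.38 ± 0.514 (SD, n = 2) and the lowest of the 5 pairs. In replicate 2 this peak ranked 11770 of 11990 by fold, with 1.84% of the list at or below it. The background under it was the highest of all member peaks in each list.

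A second replicate 1 peak from 53343339 to 53343696, with a fold of 3.04 from 43 fragments over 13.5, had no partner in replicate 2. The IDR region from 53342723 to 53344844, with a signal of 207 (rank 1739), spanned both replicate 1 peaks. Near the other end, in the KRT8 part, the IDR list had a region from 53296956 to 53299839 with a higher signal, 264 (rank 894). Neither replicate list had a peak in it. Its summit was 7026 bp from the lower end of the interval, and its place relative to the KRT8 start was not measured.

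CDH2, the N-cadherin gene on chromosome 18 (25530930 to 25757445), is read downward, so that it starts at the upper end. Its window of 327 kb was the longest, and neither replicate had a peak in it, although 50.2% and 46.6% of tiles of that length had one. The IDR list had 1 region, from 25756587 to 25758416, that covered the upper interval end, with its summit 141 bp inside the interval. Its signal was 169, rank 2929, and its score was 810 on a scale that ends at 1000. The CDH2 sequence printed above lies directly upstream of the RefSeq start in GRCh38, which was not placed in hg19. Of the 7 IDR regions here, 2 (28.6%) had no peak of either replicate, this one and the region in the KRT8 part, against 18.3% of the whole list. Regions with a peak of both replicates numbered 4 of 7, against 63.3%.

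VIM, the vimentin gene on chromosome 10 (17270258 to 17279592), is the shortest of the intervals at 9.34 kb. A replicate 1 peak lay inside it, from 17271504 to 17271726, with its summit 1353 bp past the start and a fold of 3.27 from 41 fragments over a background of 11.8. Replicate 2 and the IDR list had no entry there. A second peak of replicate 1 alone, from 17243486 to 17243756, had its summit 26.7 kb before VIM, on the side of TRDMT1, a gene for an RNA methyltransferase that precedes VIM in the GRCh38 order. Its fold was 2.90 from 40 fragments over 13.1.

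The pair of the VIM window had the highest fold enrichment of all member peaks, at 7.82 and 7.49, a mean of 7.65 ± 0.228 (SD, n = 2). It ran from 17219627 to 17220358 in replicate 1 and from 17219470 to 17220309 in replicate 2. This pair sat on the edge of the window: its summits were 50376 and 50279 bp before VIM, outside the 50 kb, and only its right flank reached in. It lay on the side of TRDMT1 in the GRCh38 order and was assigned to neither gene. It had 41 and 43 fragments, close to the 39 and 42 of the ZEB1 pair, but over the smallest background of each list, 4.37 and 4.87. Its IDR region, from 17219430 to 17220858, had the lowest signal of the 7, 150 (rank 3728). Just outside the window, a replicate 1 peak from 17219354 to 17219531 had a fold of 3.35 and 17 fragments.

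ZEB1, the repressor gene on chromosome 10 (31608101 to 31818742), had 1 peak in each replicate and no other in a window of 311 kb. The peak ran from 31609383 to 31609617 in replicate 1 and from 31609408 to 31609802 in replicate 2. Its summits lay 1377 and 1358 bp past the lower end, from which ZEB1 is read, and were 19 bp apart, the closest of any pair here. Fold was 3.32 and 3.20, a mean of 3.26 ± 0.0844 (SD, n = 2), from 39 fragments (exact Poisson 95% interval 27.7 to 53.3) over 11.0 and 42 (30.3 to 56.8) over 12.4. Of the 5 windows with a pair, ZEB1 was the one whose pair was missing from the IDR list. The RefSeq table lists 7 starts for ZEB1, and which of them lies nearest the pair was not read across builds.

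**Figure D2:**
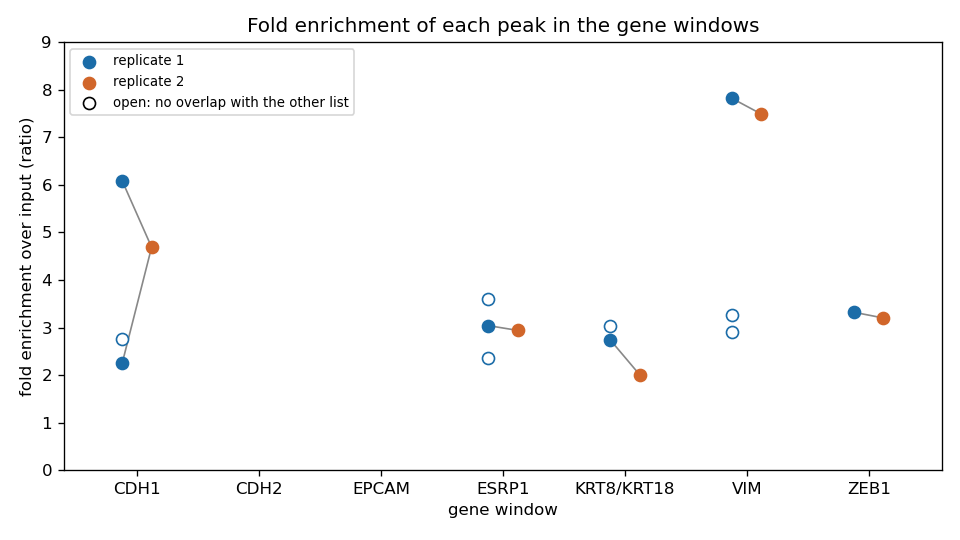
Fold enrichment over input (a ratio) of each peak in the 7 gene windows, replicate 1 on the left and replicate 2 on the right of each column; filled points joined by a line overlap, open points have no partner in the other list. The VIM pair (7.82 and 7.49) and the upper CDH1 pair (6.08 and 4.69) stand above all other points, which lie at or below 3.59, and CDH2 and EPCAM have no points.

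Heights among the members were otherwise modest. The median fold of the 12 replicate 1 peaks was 3.04, against 3.28 over the list, and that of the 5 replicate 2 peaks was 3.20, against 3.41. Median fragments were 41 and 45, against 34.0 and 30.0, and median background was 13.2 and 14.6, against 10.2 and 7.39. A fold of 6 or more was reached by 2 of the 12 replicate 1 peaks (CDH1 and VIM), against 7.46% of the list, and by 1 of the 5 replicate 2 peaks (VIM), against 7.08%. By medians, the members had more fragments than the list median over a higher background. The IDR regions had a median signal of 207, against 192.

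Replicate 2 added no site of its own: all 5 of its peaks overlapped a replicate 1 peak (exact Clopper-Pearson 95% interval 47.8% to 100%), against 64.5% of its whole list. Of the 12 replicate 1 peaks, 6 had a partner in replicate 2 (interval 21.1% to 78.9%), against 51.1%. Among those with a fold below 4 it was 4 of 10, against 39.3%. The shares in replicate 1 are close to those of the list. The IDR list covered 8 of 12 replicate 1 peaks, against 32.8%, and 4 of 5 replicate 2 peaks, against 31.4%; with so few peaks, the intervals run from 34.9% to 90.1% and from 28.4% to 99.5%, and neighbouring peaks under 1 IDR region are not independent.

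The 6 replicate 1 peaks without a partner lay at VIM (2), ESRP1 (2), CDH1 (1) and KRT18 (1), with 27 to 50 fragments and folds of 2.35 to 3.59. At like backgrounds, scaled by the 1.11 ratio of the smallest backgrounds of the lists and matched within 5%, the fewest fragments at any called replicate 2 summit were 24 to 35. Each of the 6 had at least that many in replicate 1, where only the background was scaled and fragments and their intervals were not. At the CDH1 site 27 fragments stood against 24, and at the ESRP1 site nearest the start 40 stood against 35. In both, the replicate 2 number lies within the Poisson interval of the replicate 1 fragments, 17.8 to 39.3 and 28.6 to 54.5. The VIM site before the gene was of the same kind on unscaled fragments, with 40 (28.6 to 54.5) against 30. At the other 3 sites the whole interval lay above the fewest called in replicate 2. These were the farther ESRP1 site with 50 fragments (37.1 to 65.9) against 31, the site inside VIM with 41 (29.4 to 55.6) against 28, and the KRT18 site with 43 (31.1 to 57.9) against 31. The fewest is a minimum over many summits. Against the 5th percentile of those replicate 2 summits, 33, 31 and 33 in the same order, only the unscaled ESRP1 interval lay wholly above. Scaling the fragments by 1.11 as well would raise every interval and could move sites between these classes. That was not examined, so the split of the 6 sites holds for unscaled fragments only. All intervals cover counting error only.

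**Figure D3:**
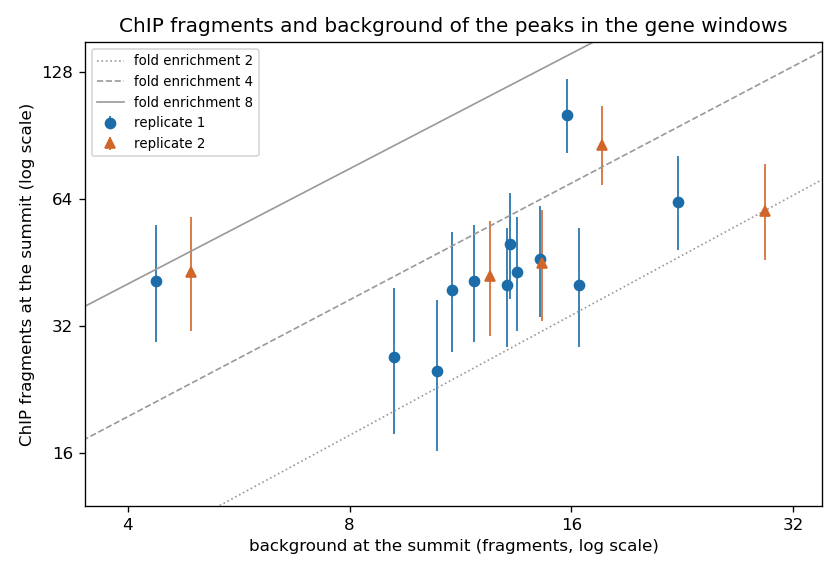
ChIP fragments at each summit against the local background, both on log scales, for the 12 replicate 1 and 5 replicate 2 peaks of the gene windows; bars are exact Poisson 95% intervals of the fragments and lines mark fold enrichments of 2, 4 and 8. The VIM pair lies far to the left at a background of 4.37 and 4.87, the CDH1 pair at the top with 101 and 86 fragments, and the KRT8 and KRT18 pair to the right at 22.3 and 29.3.

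The 5 pairs with near summits were set side by side for fragments and background. The ratio of replicate 2 to replicate 1 fragments was 1.05 at VIM, 1.08 at ZEB1, 0.978 at ESRP1, 0.952 at KRT8 and KRT18, and 0.851 at CDH1. The ratio of backgrounds was 1.11, 1.13, 1.01, 1.31 and 1.11 in the same order. Fold was higher in replicate 1 at all 5, and the log2 ratio of replicate 2 to replicate 1 ran from -0.05 at ESRP1 and ZEB1 to -0.44 at KRT8 and KRT18. At CDH1 and ESRP1 the fragment ratio lay farther from 1 than the background ratio, and at VIM, ZEB1, and KRT8 and KRT18 the background ratio lay farther. The smallest backgrounds of the 2 lists also had a ratio of 1.11, and the VIM pair lay at them. Distance from 1 therefore does not separate local background from the scale of the libraries. The label of each input library names the list of the ChIP library with the same number, and which input stood behind each background was not tested.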

How the data were processed

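Per the submitters' processing notes, the tools were MACS2 2.1.1, BWA 0.7.13-r1126 and Picard and the build was hg19, with no role given. Per the file headers, the 2 replicate lists are MACS2 peaks, each from 1 ChIP library against input per the labels, and the third list is an optimal IDR set. The authors deposited for each replicate peak a fold enrichment (a ratio), a −log10 p and a −log10 q value, the smallest −log10 q being 1.32, and a score. The deposited IDR list has a score and a signal value of unnamed scale, with no p or q. The depth of the libraries, the read filters and the calling settings are not given in the sources used here.

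Gene intervals were extended by 50 kb, and any shared base counted as overlap. Positions count from 1. Fragments and background at each summit were recovered from fold and −log10 p with the MACS2 formulas; whole fragments fitted within 0.001 in 14429 of 14431 and 11989 of 11990 peaks. On simulated peaks the step returned the right number in 100% of 14382 and 11954 peaks, made with the same formulas. The simulated fragments had a floor relative to background. The replicate 2 peak at KRT8 and KRT18 and the narrow replicate 1 flank peak past CDH1 lie below that floor. No test between groups was possible. The 8 genes and the lists were chosen with earlier results of these data known. All windows and every peak in them are reported. Tiles ran from the first to the last entry of each chromosome. Windows of other identity genes were not analysed, for want of an annotation of hg19. Python 3.11.15, pandas 2.3.3 and SciPy 1.17.1 were used.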

Additional observations from a re-analysis of the deposited data

How the results depend on the processing

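Over 43 alternative values other than leaving out a replicate, 36 stayed within 1.5 times a count, within the interval of a share or within the replicate SD of a fold, and 7 did not. With the gene intervals alone, replicate 1 had 5 peaks in place of 12, replicate 2 had 2 in place of 5 and the IDR list 4 in place of 7, since less sequence was counted. With 10 kb on each side, replicate 2 had 3 peaks, and windows with a pair fell from 5 to 3, the pairs of ESRP1 and VIM lying farther out. At a fold enrichment of 6 or more, 2 replicate 1 peaks (CDH1 and VIM) and 1 replicate 2 peak (VIM) were left, against 7.46% and 7.08% of the whole lists. In an alternative chosen after seeing the data, summits had to lie inside the window, which removed the VIM pair and left 11, 4 and 6 entries and 4 windows with a pair. Mean folds of the 5 pairs (2.38 to 7.65) were 2.01 to 7.49 without replicate 1 and 2.74 to 7.82 without replicate 2; with 2 replicates such a mean always stays within the SD, so this says nothing about stability. No paired analysis was possible because the inputs enter only as the denominator of each ChIP list and have no separate values. Summits had medians of 34.0 and 30.0 fragments over the lists, which limits the precision of single folds.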

Other observations

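Beyond the window edges, the surroundings of the genes differed in how far the next entry lay, and these values belong to no comparison above. Above KRT18, on the side of EIF4B in the GRCh38 order, an IDR region began 52.2 kb from the gene and a replicate 1 peak with a fold of 2.55 and 30 fragments began 54.1 kb from it. Upstream of the CDH2 start, a replicate 1 peak with a fold of 4.28 and 22 fragments lay 63.2 kb away, and replicate 2 had its next peak 2034 kb away on that side. Below CDH2, the nearest entry of each list lay 1008 kb from the gene. Around EPCAM, the nearest IDR regions were 3772 kb below and 7169 kb above, although both replicates had peaks within 192 kb on either side. Above ZEB1, a replicate 1 peak with a fold of 2.36 and 34 fragments began 73.6 kb past the gene, and the next replicate 2 peak 398 kb past it.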
